A study of Mus musculus with 62 samples.

Results

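Nicotinamide riboside (NR) given alone to running mice was examined by comparing 7 muscle libraries from mice that ran and received NR with 7 from mice that ran and received no supplement, 14 of the 62 libraries in the study. The study crossed voluntary wheel running, NR and pterostilbene (PT, a plant stilbenoid) in all combinations in male mice and counted poly-A RNA of the quadriceps, the large muscle of the front thigh. Both groups compared here ran on wheels and neither received PT, so among the treatments they differ by label only in NR. By the series title NR was given intravenously, the sample labels record only whether it was given, and neither strain, age nor dose is given in the sources used here. For comparison, NR was also set against no supplement in sedentary mice (8 against 8) and added to PT in running mice (8 against 8) and in sedentary mice (8 against 8).

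NR is a form of vitamin B3 that the NR kinases Nmrk1 and Nmrk2 phosphorylate to nicotinamide mononucleotide, which the Nmnat enzymes turn into NAD. Muscle also makes NAD by salvage of nicotinamide, where Nampt sets the rate. NAD carries electrons in energy metabolism and is consumed as a substrate by sirtuins, by PARP enzymes and by Cd38.

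Each library carries labels for 1 of 8 days of termination, for morning or noon, for 1 of 2 cohorts, for a purification pool and for RNA integrity (RIN). A weight change is also given for each, with some values shared. Within each group every library has a different day of termination, so the libraries were taken as separate mice. On 6 days both groups had 1 mouse each, which gives 6 same-day pairs, while NR replicate 3 and unsupplemented replicate 4 stood alone on their days. Cohort 1 held 4 NR and 3 unsupplemented mice, and cohort 2 held 3 and 4. All cohort 1 libraries of both groups were in pool 1. Those of cohort 2 were in pool 3, except unsupplemented replicate 4 in pool 1. Pool was not a term of the fit. Totals were 5.64 to 28.1 M counts in the NR libraries and 10.2 to 20.8 M in the unsupplemented ones. NR replicate 1 stood apart. Genes whose reads resemble ribosomal RNA took 28.9% of its counts against 0.182 to 1.52% in the other 13 libraries, and its median correlation with them was 0.934 where theirs were 0.977 to 0.983. Long transcripts were over-represented in it, with titin (Ttn, the giant sarcomeric spring protein) at 88120 CPM (counts scaled to a common library size) against 6607 to 13057 in the other 13. Results are therefore given with and without that library. Mean RIN was 9.43 ± 0.53 (SD, n = 7) with NR and 9.69 ± 0.15 (SD, n = 7) without, a difference that did not pass (exact permutation test, two-sided, p = 0.272, adjusted p = 0.632 over 4 sample measures). That test pools the cohorts. In cohort 1 RIN was 8.6 to 9.3 with NR and 9.6 in every unsupplemented library, so RIN and NR cannot be told apart there. In cohort 2 it was 9.8 to 10 with NR and 9.5 to 9.9 without. The labelled weight change, whose unit is not stated, was -0.457 ± 2.27 (SD, n = 7) with NR and 0.757 ± 2.06 (SD, n = 7) without (exact permutation test, two-sided, p = 0.316, adjusted p = 0.632). All 14 libraries had the makeup of fast quadriceps muscle, with the fast myosin Myh4 at 48323 to 68356 CPM and muscle actin Acta1 at 24530 to 32090 CPM.

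No gene passed the test for NR in running mice. Of 14549 genes tested with edgeR's quasi-likelihood test, 0 (0%) had an adjusted p below 0.05, and DESeq2 also called 0. At an unadjusted p below 0.05 there were 423 genes (2.91%), of which 246 (1.69%) were higher and 177 (1.22%) lower with NR. Without NR replicate 1 the count was again 0 (0%) of 14654 genes tested, with 443 (3.02%) at an unadjusted p below 0.05. The fitted values split evenly, with 7229 of 14549 genes above 0 and a median log2 difference of -0.00073. The precision behind this was good for most muscle genes. Of the 12664 genes that averaged 1 CPM or more, 86.7% had a 95% interval that lay wholly within a 1.5-fold difference in either direction and 97.7% within a 2-fold difference. The median standard error was 0.10 on the log2 scale. The adjusted p from edgeR for NR in runners was 0.637 for Aph1b and rounded to 1.00 for every other gene named below. Differences are fitted log2 values, NR minus no supplement, given ± SE, and levels are CPM. Counts of same-day pairs are description only. Genes named for a small p-value were picked from these same libraries, where pairs in the same direction are likely. The share of all genes with every pair in the same direction is not given here.

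The gene of the NAD pathway with the largest difference was Nmrk2, the NR kinase enriched in muscle. Its level ran from 15.6 through a median of 32.0 to 74.6 CPM in the 7 NR libraries and from 36.4 through 58.9 to 150.5 CPM in the 7 unsupplemented ones. Unsupplemented replicate 2 was the highest of all and NR replicate 2 the lowest, and the groups overlapped. The fitted difference was -0.85 ± 0.30 (SE, 95% interval -1.46 to -0.24), a level 0.554 times that without NR, and it did not pass the test. It was -0.90 ± 0.32 without NR replicate 1, and -1.09 in cohort 1 and -0.53 in cohort 2. Nmrk2 was lower with NR in 4 of the 6 same-day pairs and higher in 2. In the other settings it lay in the same direction: -1.44 ± 0.28 in sedentary mice (edgeR adjusted p = 0.0745), -0.98 ± 0.28 in runners given PT and -1.17 ± 0.28 in sedentary mice given PT. The difference between runners and sedentary mice, 0.58 ± 0.41, did not pass (edgeR adjusted p = 1.00).

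Nmrk2 lies on the minus strand of chromosome 10 at 81198170 to 81202051 (mm10, as deposited), inside the span of the antisense gene Atcayos (plus strand, 81194609 to 81209161), which also overlaps Atcay (minus strand, 81204508 to 81230785). The libraries were made with a stranded kit, per the labels' protocols, but no source used here says whether the counting respected strand, and reads of these genes may be shared. Atcayos stood at 104 to 128 CPM (median 116) with NR and at 89.5 to 115 CPM (median 98.3) without. Its difference was opposite in sign to that of Nmrk2, at 0.20 ± 0.08, with 5 of 6 pairs higher and the same value without NR replicate 1. In the other settings Atcayos gave 0.35 ± 0.07 in sedentary mice, 0.27 ± 0.07 in runners with PT and 0.31 ± 0.07 in sedentary mice with PT. Atcay, which encodes the neuronal protein caytaxin, gave 0.14 ± 0.19, or 0.04 without NR replicate 1.

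The rest of NAD metabolism gave smaller differences than Nmrk2. Of the 26 genes on the NAD synthesis list 19 could be tested, 0 passed, 7 were above 0 and 12 below, and their median was -0.04 with or without NR replicate 1. Of these 19, which include Nmrk2, 10 lay within 0.1 of 0. Mean log2 CPM over the list was 3.37 ± 0.07 (SD, n = 7) with NR and 3.48 ± 0.08 (SD, n = 7) without. It was lower with NR in 5 of the 6 same-day pairs. Nampt held 127 to 184 CPM (median 164) with NR and 150.1 to 184 CPM (median 162) without, a difference of -0.04 ± 0.07. Nmrk1, the widely expressed NR kinase, gave 0.04 ± 0.11. Nmnat1 and Nmnat3, which make NAD in the nucleus and the mitochondrion, gave -0.02 ± 0.07 and 0.01 ± 0.07. Naprt, which starts NAD synthesis from nicotinic acid, gave -0.14 ± 0.12, and Nnmt, which methylates nicotinamide for disposal, gave -0.16 ± 0.33 over a wide spread of 1.48 to 8.11 CPM in the unsupplemented libraries. Among 21 genes that consume NAD, 12 were above 0, 0 passed and the median was 0.03. Sirt1, the nuclear deacetylase, gave 0.10 ± 0.09, mitochondrial Sirt3 -0.06 ± 0.10, Parp1, the main DNA damage PARP, 0.03 ± 0.04, and the ectoenzyme Cd38 0.04 ± 0.13. The lowest of this list was Parp14 at -0.25 ± 0.17, a PARP that is also induced by interferon, with a median of 13.7 CPM with NR against 18.2 CPM without.

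The smallest p-value belonged to Aph1b, a subunit of the γ-secretase protease complex (chromosome 9, 66775202 to 66795490). It measured 3.36 to 4.80 CPM (median 4.06) with NR and 4.90 to 6.96 CPM (median 6.09) without. Every NR library lay below every unsupplemented one and all 6 same-day pairs were lower. The difference of -0.55 ± 0.12 (95% interval -0.80 to -0.30) did not pass (edgeR adjusted p = 0.637), and it was -0.53 without NR replicate 1, -0.67 in cohort 1 and -0.45 in cohort 2. In the other settings Aph1b gave 0.02 in sedentary mice, -0.05 in runners with PT and 0.01 in sedentary mice with PT. The test of the difference from sedentary mice gave -0.57 ± 0.17 (edgeR adjusted p = 1.00) and that from PT-treated runners -0.50 ± 0.17 (edgeR adjusted p = 1.00).

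Groups of 7 and 7 did not overlap for 6 of 14549 genes (0.0412%), 3 higher with NR (Net1, Myh8 and Dvl2, 0.0206%) and 3 lower (Aph1b, Kcnd1 and 5830454E08Rik). Without NR replicate 1 there were 11 such genes (0.0756%). With 14549 genes and 3432 ways to split 14 libraries into groups of 7, about as many genes can separate with no effect of NR. The count is therefore not read as a result about NR, and the genes are described only. Dvl2, Kcnd1 and 5830454E08Rik are named only because their groups do not overlap. Net1, an exchange factor that activates RhoA (chromosome 13, 3882018 to 3918220), held 54.8 to 68.2 CPM (median 64.9) with NR against 42.4 to 53.9 CPM (median 49.5). Its difference was 0.31 ± 0.08, the same without NR replicate 1, with 0.25 in cohort 1 and 0.35 in cohort 2. It gave 0.03 ± 0.08 in sedentary mice, -0.07 ± 0.08 in runners with PT and 0.17 ± 0.08 in sedentary mice with PT. Myh8, the perinatal myosin heavy chain that adult muscle re-expresses on denervation or repair (chromosome 11, 67277124 to 67308634), held 5.24 to 7.11 CPM (median 5.81) with NR against 3.56 to 4.80 CPM (median 4.10). Its difference was 0.53 ± 0.16, or 0.55 without NR replicate 1, with all 6 pairs higher. Myh8 was above 0 in each of the other settings, at 0.24 ± 0.15 in sedentary mice, 0.33 ± 0.15 in runners with PT and 0.39 ± 0.15 in sedentary mice with PT. At under 8 CPM in every library these are small amounts of RNA beside the adult myosins. The potassium channel gene Kcnd1 stood at 0.0811 to 0.390 CPM with NR and 0.484 to 0.797 CPM without. Dvl2, a transducer of Wnt signals, rested partly on NR replicate 1, where it was highest at 13.5 CPM, and its difference moved from 0.24 to 0.14 without that library.

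**Figure D1:**
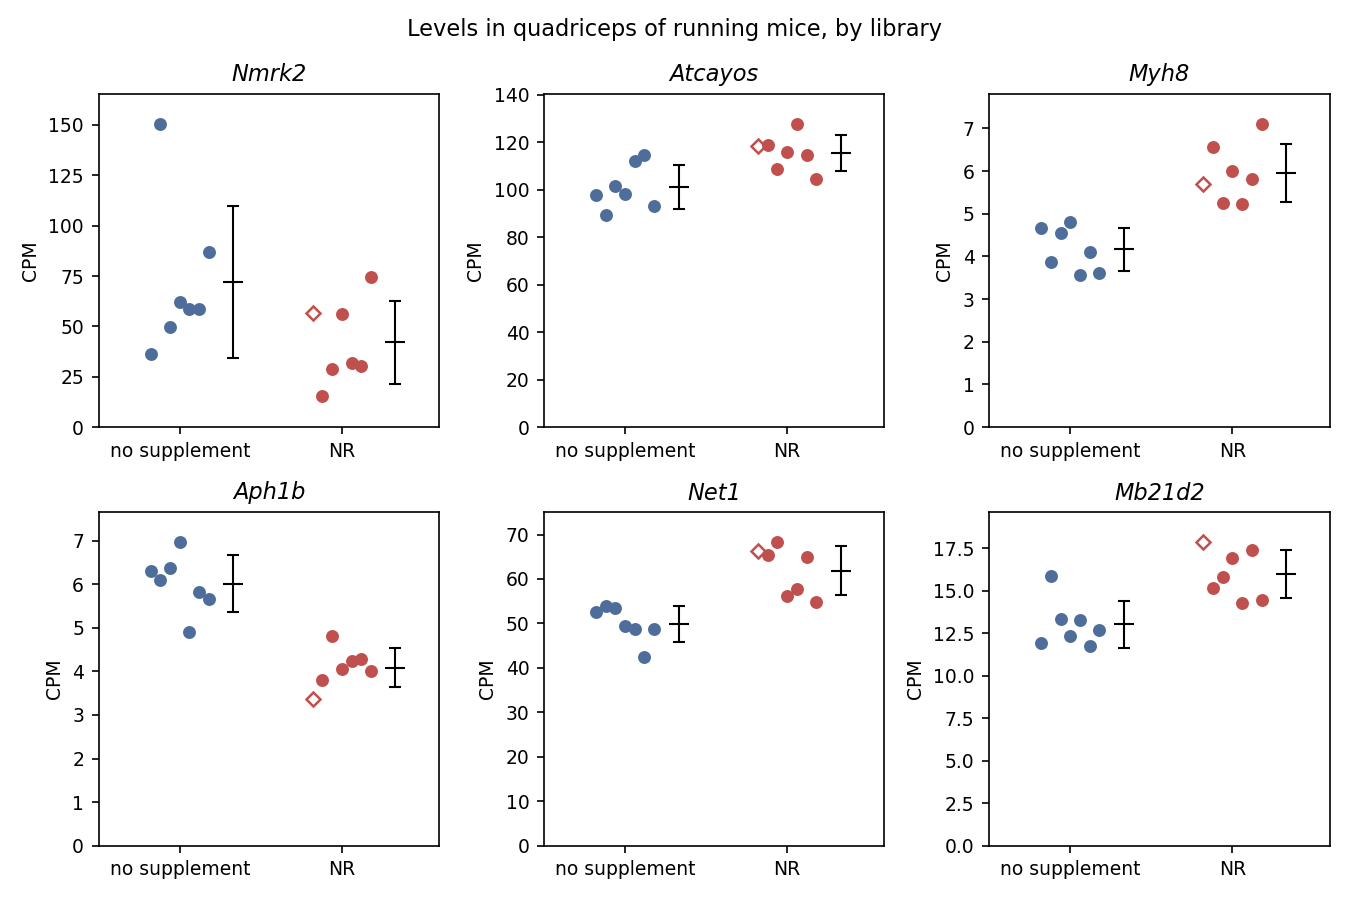
CPM of 6 genes in each of the 14 libraries, on linear axes; blue points are running mice without a supplement, red points running mice with NR, the open diamond is NR replicate 1, and bars are mean ± SD (n = 7). Nmrk2 overlaps between the groups, Aph1b lies wholly lower with NR, and Net1 and Myh8 lie wholly higher.

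None of the other genes with the smallest p-values passed. They were picked from the same libraries that make up the cohorts, so similar values in both cohorts are no separate support. Mb21d2 gave 0.27 ± 0.07, from 14.3 to 17.8 CPM with NR and 11.7 to 15.9 CPM without, with 0.24 in cohort 1 and 0.30 in cohort 2. Gpx3, the secreted glutathione peroxidase, stood at 247 to 342 CPM (median 266) with NR and 198 to 263 CPM (median 230.2) without, a difference of 0.27 ± 0.09 with all 6 pairs higher. Slc12a5, a potassium and chloride cotransporter best known from neurons, gave 0.81 ± 0.25 at 1.32 to 3.10 CPM against 0.604 to 1.41 CPM, with all 6 pairs higher. Ccdc6 shows how far 1 library can carry a value. It reached 165 CPM in NR replicate 1 against 89.3 to 101 in the other 6 NR libraries, and its difference moved from 0.26 ± 0.08 to 0.13 without that library. Vsig2 likewise peaked there at 8.02 CPM and moved from 0.52 ± 0.16 to 0.43. On the low side, Smoc2, a matricellular protein of fibroblasts, measured 101 to 139 CPM (median 124) with NR and 138 to 178 CPM (median 147) without. Only the highest NR library reached into the unsupplemented range, and the difference was -0.27 ± 0.08, or -0.23 without NR replicate 1. Sdf2l1, an endoplasmic reticulum protein, gave -0.61 ± 0.19, Rnd2, a small GTPase, -0.54 ± 0.18 and the chromatin protein Banp -0.52 ± 0.17, each lower in 6 of 6 pairs and each under 8 CPM. The signalling gene Gng7 gave -0.49 ± 0.16, Rarb, a retinoic acid receptor, -0.40 ± 0.13 and Blzf1, a Golgi protein, -0.18 ± 0.06.

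Interferon-induced genes and genes of antigen presentation lay mostly below 0 with NR, and no gene passed. Type I and type II interferons switch these genes on through STAT proteins and interferon regulatory factors, and the latter bind a GAAANNGAAA pattern in promoters. A search of both strands of the 250 bases before each gene's start (RefSeq, GRCm38.p6) found this pattern in 14 of 27 interferon response genes with a promoter in that set (51.9%) and in 3 of 17 antigen presentation genes (17.6%), against 3.18% of 10668 genes tested. It was also found in 2 of 7 fibroblast markers (28.6%), so the pattern is not confined to these lists. Overlapping matches were merged in the printed stretches. The stretches of 4 genes described next are shown because they let the shared motif be seen. They are written along the strand of the gene with the match in capitals, and in the last one the match is on the opposite strand.
Bst2, chr8:71537565-71537624, minus strand: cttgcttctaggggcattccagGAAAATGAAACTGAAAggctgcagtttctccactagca
Oas1a, chr5:120907526-120907585, minus strand: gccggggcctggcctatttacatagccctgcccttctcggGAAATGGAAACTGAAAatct
B2m, chr2:122147523-122147582, plus strand: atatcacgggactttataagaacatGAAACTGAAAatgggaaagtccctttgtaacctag
H2-T23, chr17:36032791-36032850, minus strand: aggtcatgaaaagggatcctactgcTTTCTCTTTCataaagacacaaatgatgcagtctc

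Of 39 interferon response genes tested, 0 passed, 34 were below 0 and 5 above, and the median was -0.25, beside 7320 of 14549 genes below 0 and a median of -0.00073 over all genes. Without NR replicate 1 the median was -0.22, with 35 below 0. Bst2, the tetherin that holds budding virus at the membrane, measured 5.61 to 7.47 CPM (median 6.25) with NR and 5.69 to 13.7 CPM (median 7.93) without. Unsupplemented replicates 2, 3, 5 and 7 lay above every NR library, and the other 3 lay among them. The difference was -0.43 ± 0.19, and -0.28 without unsupplemented replicate 3. Irf7, the factor that amplifies the interferon response, held 2.07 to 5.75 CPM (median 2.83) with NR and 3.49 to 5.50 CPM (median 4.90) without, a difference of -0.46 ± 0.23. All 6 same-day pairs were lower, while NR replicate 3, alone on its day, was the highest library of all. Xaf1, an apoptosis factor, gave -0.34 ± 0.16, with 0.05 in cohort 1 and -0.70 in cohort 2. Oas1a, which senses double-stranded RNA, gave -0.68 ± 0.37 at 0.259 to 0.670 CPM against 0.490 to 1.08 CPM. The range of the list ran from Iigp1 at -0.69 to Dhx58 at 0.10.

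For the interferon list the cohorts were unequal, and 1 unsupplemented library carried much of the value. The median was -0.03 in cohort 1, with 14 of 39 genes above 0, and -0.42 in cohort 2, with 2 above 0. It was -0.11 without unsupplemented replicate 3. Mean log2 CPM over the list was 2.15 ± 0.25 (SD, n = 7) with NR and 2.37 ± 0.30 (SD, n = 7) without, and only 2 of the 6 same-day pairs were higher with NR. In the other settings the median was -0.46 in sedentary mice, with 39 of 39 below 0, -0.07 in runners with PT and -0.19 in sedentary mice with PT.

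All 22 genes of antigen presentation were below 0, with 0 passing and a median of -0.21, or -0.19 without NR replicate 1. In cohort 1 the median was -0.12 with 5 of 22 above 0, and in cohort 2 it was -0.21 with 0 above 0. Mean log2 CPM over the list was 3.77 ± 0.25 (SD, n = 7) with NR and 3.97 ± 0.33 (SD, n = 7) without. The groups overlapped, and 2 of the 6 same-day pairs were higher with NR. Psmb8, a catalytic subunit of the immunoproteasome, measured 2.52 to 6.49 CPM (median 5.02) with NR and 4.71 to 10.2 CPM (median 7.05) without, a difference of -0.51 ± 0.20. B2m, the light chain of class I molecules, held 95.4 to 127 CPM (median 110.0) with NR and 92.4 to 224 CPM (median 114) without. The value of 224 CPM was unsupplemented replicate 3, and the difference of -0.23 ± 0.16 was -0.02 when that library was left out. H2-T23, a nonclassical class I gene, gave -0.23 ± 0.18, and H2-Aa, a class II chain of antigen-presenting cells, -0.29 ± 0.20. Without unsupplemented replicate 3 the median of the list was -0.06. In sedentary mice the list median was -0.37, with 22 of 22 genes below 0, in runners with PT it was 0.08, with 18 above 0, and in sedentary mice with PT it was -0.21, with 21 below 0.

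Markers of macrophages and fibroblasts also lay mostly below 0. In bulk muscle, fewer cells of a type and less RNA per cell cannot be told apart. Of 17 macrophage and neutrophil markers tested, 16 were below 0 and 0 passed, with a median of -0.22, or -0.21 without NR replicate 1. Adgre1, which encodes the macrophage surface protein F4/80, measured 4.40 to 9.04 CPM (median 6.23) with NR and 6.34 to 12.3 CPM (median 8.14) without, a difference of -0.40 ± 0.20 with all 6 pairs lower. Csf1r, the receptor for the macrophage growth factor, gave -0.33 ± 0.21 with 6 of 6 pairs lower, the lysosomal protein Cd68 -0.37 ± 0.24 and the complement gene C1qc -0.33 ± 0.21. The single marker above 0 was the neutrophil gene S100a9 at 0.55 ± 0.48, with at most 0.948 CPM in any library. Its neutrophil partners S100a8 and Ly6g were too low to test. The summed level of the list was 201 to 360.3 CPM with NR and 245 to 447 CPM without, so the ranges overlapped. The median was -0.38 in cohort 1 and -0.20 in cohort 2, -0.13 without unsupplemented replicate 3 and -0.33 without unsupplemented replicate 6. In the other settings it was 0.02 in sedentary mice, 0.05 in runners with PT and -0.04 in sedentary mice with PT. The same unsupplemented replicate 3 was highest for macrophage, antigen presentation and erythrocyte lists together. The part of macrophage content in the interferon and antigen presentation values was not tested.

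All 15 fibroblast markers tested were below 0 and 0 passed, with a median of -0.18, or -0.20 without NR replicate 1. The NR mouse had the lower mean log2 CPM over the list in 6 of 6 pairs, and this mean was 6.18 ± 0.20 (SD, n = 7) with NR and 6.40 ± 0.20 (SD, n = 7) without. Pi16, a marker of the progenitor fibroblasts found around vessels, gave 30.5 to 118 CPM (median 55.6) with NR and 62.2 to 135 CPM (median 87.5) without. NR replicate 3 was high for Pi16, as it was for Dpp4, Csf1r and Irf7, and all 6 same-day pairs were lower. The fitted difference was -0.59 ± 0.36, against 0.39 ± 0.33 in sedentary mice, and the test of that difference gave -0.99 ± 0.49 (edgeR adjusted p = 1.00). Pi16 gave 0.02 in runners with PT and -0.24 in sedentary mice with PT. Dpp4, of the same progenitors, gave -0.46 ± 0.34, Clec3b -0.27 ± 0.21 with 6 of 6 pairs lower, the proteoglycan Dcn -0.18 ± 0.14 and Pdgfra, a receptor found on most muscle fibroblasts, -0.06 ± 0.13. The list median was 0.16 in sedentary mice, with 14 of 15 above 0, 0.06 in runners with PT, with 9 above 0, and -0.04 in sedentary mice with PT, with 12 below 0. With RIN as a covariate the medians in running mice without PT were -0.33 for fibroblasts and -0.43 for macrophages. The same fit gave -0.32 for the interferon list and -0.25 for antigen presentation. Of lists described below, the glucocorticoid and immediate early medians came closer to 0, at 0.29 and 0.22, and the adipocyte median changed sign to -0.07. Of 39 extracellular matrix genes, many of them products of fibroblasts, 30 were below 0, with a median of -0.07. Leaving out single libraries moved this median between -0.12, without NR replicate 1, and -0.02, without NR replicate 4, where 26 were below 0. It was -0.03 without NR replicate 7, with 24 below 0, and -0.03 without unsupplemented replicate 3, with 23 below 0.

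Pi16 was 1 of 3 genes that passed in a fit of the 14 libraries alone with the day of termination as a block, where the 2 libraries alone on their days add nothing to the comparison. In that fit Pi16 fell by 0.73 ± 0.10 on the log2 scale (edgeR adjusted p = 0.0348). The other two were Aldh1a3, which makes retinoic acid, and Smpd3, a neutral sphingomyelinase, both chosen after their values were seen. Aldh1a3 fell by 1.03 ± 0.13 in it (edgeR adjusted p = 0.0252), and Smpd3 fell by 1.28 ± 0.19 (edgeR adjusted p = 0.045). Without NR replicate 1, a choice made after seeing the data, the same fit called the same 3 genes, at -0.67, -1.05 and -1.38. In the fit over all 62 libraries they did not pass, at -0.59 ± 0.36, -0.70 ± 0.48 and -0.99 ± 0.44. Aldh1a3 measured 2.60 to 16.5 CPM (median 4.48) with NR and 5.10 to 17.5 CPM (median 8.73) without, and Smpd3 1.37 to 7.84 CPM (median 2.06) with NR and 3.42 to 11.8 CPM (median 4.90) without. NR replicate 3 was the highest NR library for all 3 genes, and each gene was lower in 6 of 6 same-day pairs. In sedentary mice, runners with PT and sedentary mice with PT, Aldh1a3 gave 0.53, 0.23 and -0.34 and Smpd3 0.40, -0.19 and -0.07.

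Other cell types gave smaller medians or rested on 1 library. The 6 erythrocyte genes were below 0 with a median of -0.29, but their summed level was 224 CPM in unsupplemented replicate 3, and without it the median was 0.03. Of 20 endothelial genes 14 were above 0 with a median of 0.05, which became 10 of 20 and 0.01 without NR replicate 1, and 0.10 with 14 of 20 without unsupplemented replicate 1. Of 14 adipocyte genes 13 were above 0 with a median of 0.09, which became 9 of 14 and 0.03 without NR replicate 1. Leaving out single libraries moved this median between 0.01, without unsupplemented replicate 5, and 0.28 with 14 of 14 above 0, without unsupplemented replicate 3. The cohorts went opposite ways, at -0.14 with 5 of 14 above 0 in cohort 1 and 0.18 with 13 of 14 in cohort 2, and the other settings lay below 0, at -0.20 in sedentary mice, -0.20 in runners with PT and -0.29 in sedentary mice with PT. Plin1, the coat protein of fat droplets, moved from 0.42 ± 0.50 to 0.18 without NR replicate 1, and Ucp1, the uncoupler of brown fat, was at 0 counts in all 14. Only 3 of 12 lymphocyte markers could be tested, and the T cell gene Cd3e gave -0.00 ± 0.23. Of 14 Schwann cell and nerve genes tested 4 were above 0 and 10 below, with a median of -0.06, which became 0.00 with 8 above 0 without unsupplemented replicate 3. They ran from Mag at -0.97 ± 0.36, with at most 1.08 CPM in any library, to Mal at 0.45 ± 0.27, both myelin proteins. The medians were 0.02 for satellite cell genes and -0.01 for smooth muscle and pericyte genes.

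**Figure D2:**
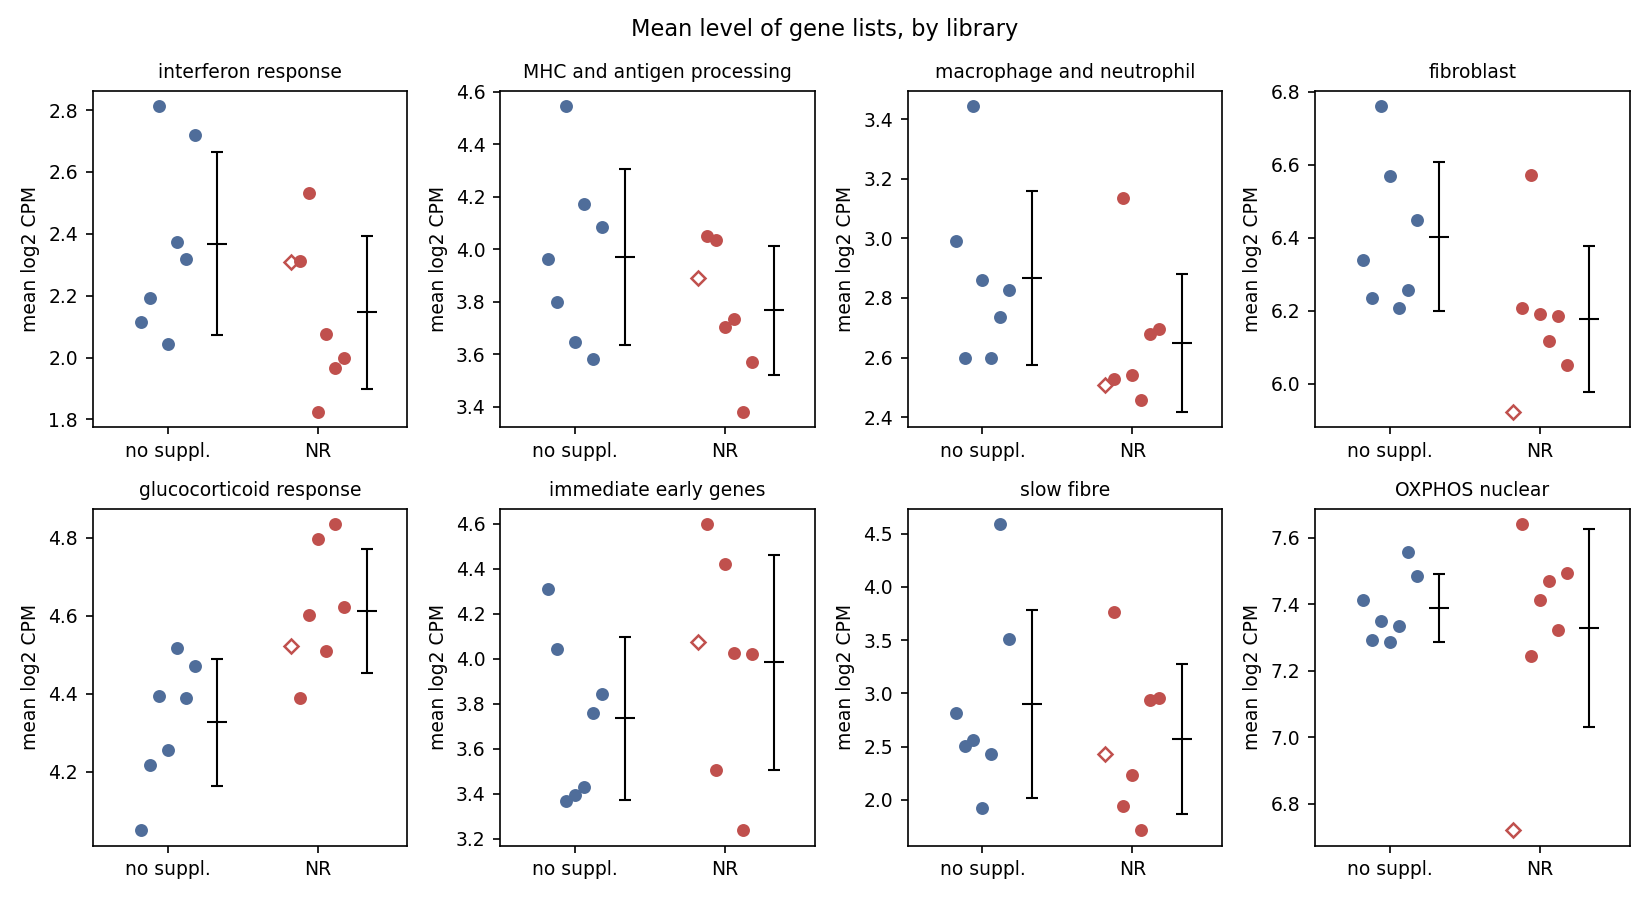
Mean log2 CPM over the tested members of 8 gene lists in each of the 14 libraries; blue points are running mice without a supplement, red points running mice with NR, the open diamond is NR replicate 1, and bars are mean ± SD (n = 7). The groups overlap for every list shown, and the glucocorticoid list stands at 4.61 ± 0.16 with NR and 4.33 ± 0.16 without.

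Genes induced by glucocorticoids and immediate early genes lay above 0, without any gene passing. Glucocorticoids act through a nuclear receptor that switches on stress and fuel genes in muscle, and immediate early genes are the first to respond to contraction or other stimuli. Of 15 glucocorticoid response genes 13 were above 0, with a median of 0.39, or 0.44 with 12 above 0 without NR replicate 1. Cebpd, a transcription factor of this response, measured 6.08 to 19.2 CPM (median 9.31) with NR and 4.12 to 11.1 CPM (median 6.61) without, a difference of 0.78 ± 0.32 with 6 of 6 pairs higher. NR replicates 4 and 6 held the 2 highest levels, and without NR replicate 4 the difference was 0.52. Fkbp5, a brake on the glucocorticoid receptor, stood at 28.9 to 65.0 CPM (median 41.1) with NR and 22.5 to 36.2 CPM (median 27.8) without, a difference of 0.51 ± 0.25. It too was higher in 6 of 6 pairs, and gave 0.31 without NR replicate 6. Sgk1, a kinase that regulates ion transport, gave 0.37 ± 0.17 and Ddit4, an inhibitor of mTORC1, 0.66 ± 0.37. Klf15 and Klf9, receptor targets abundant in muscle, gave -0.11 ± 0.12 and 0.03 ± 0.07, and Zbtb16 moved from 0.09 ± 0.19 to -0.15 without NR replicate 1.

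The glucocorticoid list was higher with NR in 6 of 6 same-day pairs, with medians of 0.33 in cohort 1 and 0.19 in cohort 2, and of 0.26 without NR replicate 4. In the other settings its median lay near 0, at -0.04 in sedentary mice, -0.03 in runners with PT and 0.08 in sedentary mice with PT. Of 21 immediate early genes tested 18 were above 0, with a median of 0.27, or 0.28 without NR replicate 1. It was 0.10 without NR replicate 4 and 0.16 without NR replicate 2, and 0.02, -0.14 and 0.02 in sedentary mice, runners with PT and sedentary mice with PT. Btg2, an antiproliferative gene, measured 25.8 to 84.1 CPM (median 49.2) with NR and 21.8 to 47.6 CPM (median 30.4) without, a difference of 0.66 ± 0.26 with 6 of 6 pairs higher, and 0.38 without NR replicate 4. Jun, of the AP-1 factor, gave 0.31 ± 0.13 and Zfp36, which speeds mRNA decay, 0.45 ± 0.22, each with 6 of 6 pairs higher, and 0.18 and 0.20 without NR replicate 4. Fos gave 0.57 ± 0.41 and Egr1 0.34 ± 0.30, over spreads of 16.7 to 127 CPM and 40.7 to 149 CPM with NR. The lowest of the list was Atf3 at -0.28 ± 0.43, where unsupplemented replicates ran from 2.25 to 46.5 CPM. Of the 19 clock genes 16 were above 0, at a median of 0.05, and the light-responsive and glucocorticoid-responsive Per1 was the highest at 0.45 ± 0.33. Without NR replicate 4 Per1 gave 0.16 and the list had 10 of 19 above 0 at a median of 0.01, and in the other settings its median was -0.03 in sedentary mice, -0.06 in runners with PT and -0.02 in sedentary mice with PT.

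Slow fibre genes lay below 0, and their sign turned on 1 unsupplemented mouse. Slow fibres are scarce in the mouse quadriceps and express their own myosins and troponins. Of 16 genes 15 were below 0 with a median of -0.31, or -0.33 without NR replicate 1, but without unsupplemented replicate 6 the median was 0.06, with 9 of 16 above 0. It was -0.16 without NR replicate 3 and -0.15 without NR replicate 5. Myh7, the slow myosin heavy chain, stood at 0.177 to 4.78 CPM (median 0.878) with NR and 0.338 to 25.4 CPM (median 0.940) without. The value of 25.4 CPM was unsupplemented replicate 6, and the fitted -1.49 ± 1.03 became 0.47 without it and -2.75 without NR replicate 2. The slow light chains Myl3 and Myl2 reached 34.1 and 14.6 CPM in that same mouse and gave -2.19 ± 1.43 and -1.18 ± 0.88. In cohort 1 the list median was 0.04 and in cohort 2, which holds replicate 6, it was -0.46. In runners with PT the NR difference of Myh7 was 2.67 ± 0.90, and the test of the difference between both effects gave -4.16 ± 1.36 (edgeR adjusted p = 1.00). The fast heavy chains were close to 0, with Myh4 at 0.01 ± 0.09, Myh1 at 0.03 ± 0.29 and Myh2 at -0.29 ± 0.54. Beside Myh8, the regeneration and denervation list was unremarkable, with 14 of 22 above 0 and a median of 0.03. Mymk, which fuses myoblasts, gave 1.57 ± 0.85 with at most 1.03 CPM in any library, and Sln, the inhibitor of the calcium pump, 1.05 ± 0.57.

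Genes of energy metabolism were near 0, and the sign of several lists turned on single libraries. Of 78 nuclear genes of the respiratory chain tested, 15 were above 0 with a median of -0.03, whereas 75 were above 0 with a median of 0.05 without NR replicate 1. Without unsupplemented replicate 6 there were 51 above 0 with a median of 0.01, and without NR replicate 2 there were 4 with a median of -0.10. Ndufb6, a subunit of complex I, was 38.3 CPM in NR replicate 1 and 62.4 to 76.8 CPM in the other 6 NR libraries, and moved from -0.14 ± 0.09 to -0.04. The tricarboxylic acid cycle went from 8 to 20 of 27 genes above 0 without NR replicate 1, and also to 20 without unsupplemented replicate 6. Without NR replicate 1, fast fibre genes went from 5 to 11 of 16 above 0 and insulin signalling from 23 to 14 of 31. All 4 of these lists had medians between -0.05 and 0.05 with all 14 libraries. Of the 35 genes of fatty acid uptake and oxidation 19 were above 0 with a median of 0.00, but the cohorts went opposite ways, with 32 of 35 above 0 in cohort 1 (median 0.17) and 2 of 35 in cohort 2 (median -0.13). Ppargc1a, the coactivator that drives mitochondrial biogenesis after exercise, held 27.5 to 46.8 CPM (median 35.5) with NR and 31.5 to 41.7 CPM (median 33.5) without, a difference of 0.01 ± 0.10. Slc2a4, the insulin-responsive glucose transporter, gave 0.01 ± 0.06, Hk2, which traps glucose in the cell, 0.01 ± 0.11, and the angiogenic factor Vegfa -0.03 ± 0.11. Pdk4, which blocks pyruvate oxidation, ranged from 165 to 1248 CPM with NR and its difference moved from 0.21 ± 0.45 to 0.01 without NR replicate 1. The 8 mitochondrially encoded genes tested had a median of 0.00, and mt-Co1 gave -0.08 ± 0.10. Single genes with small p-values in these lists were the fatty acid transporter Slc27a4 at 0.19 ± 0.07, Fbp2, the muscle fructose bisphosphatase, at 0.23 ± 0.11 with 6 of 6 pairs higher, and the basal glucose transporter Slc2a1 at -0.26 ± 0.13 with 6 of 6 pairs lower.

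**Figure D3:**
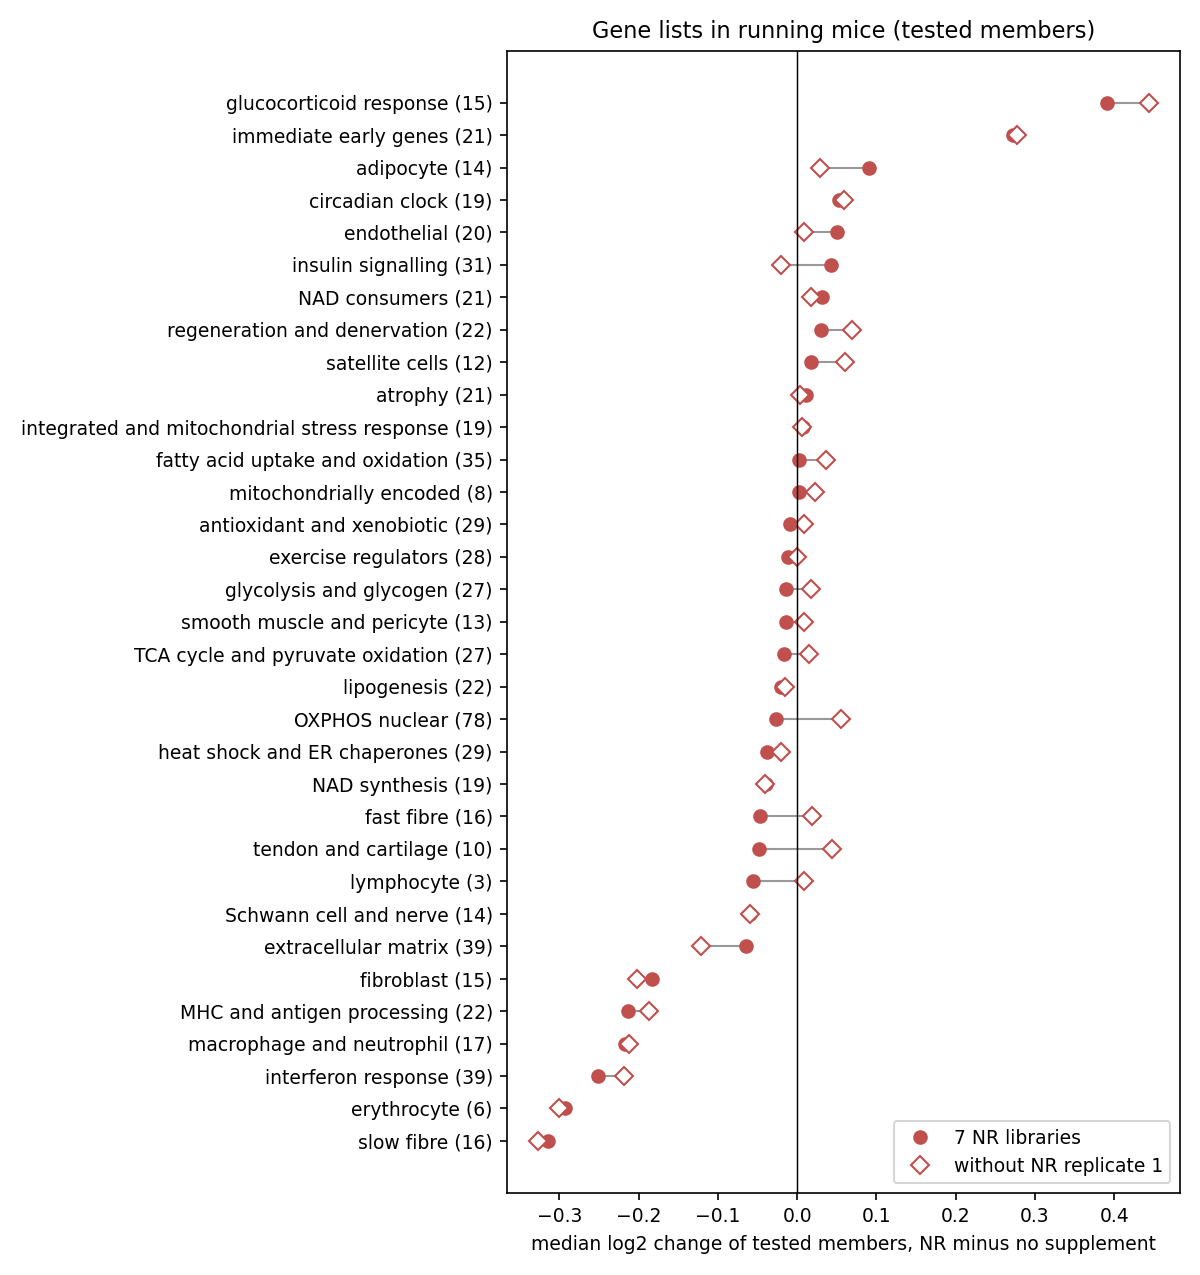
Median fitted log2 difference, NR minus no supplement, of the tested members of 33 gene lists (horizontal axis), with all 14 libraries and without NR replicate 1. Interferon, antigen presentation, macrophage and fibroblast lists lie at -0.25 to -0.18 and the glucocorticoid list at 0.39, while the respiratory chain list changes sign without that library.

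Whether the NR difference in runners departed from that in sedentary mice, or from that with PT, was tested in the same fit. Each test reuses the 14 libraries of the main comparison beside other mice, and so is not independent of that comparison. No gene passed either test with edgeR, 0 of 14549 (0%) in each, and DESeq2 called 0 in each. At an unadjusted p below 0.05 there were 468 genes (3.22%) for the difference from sedentary mice and 462 (3.18%) for the difference from PT. NR alone also called 0 genes in sedentary mice (584 at an unadjusted p below 0.05, 4.01%), as did NR added to PT in runners (668, 4.59%) and in sedentary mice (451, 3.1%). The smallest p-value for the difference from sedentary mice was that of Vsig2, at 0.52 ± 0.16 in runners and -0.39 in sedentary mice (edgeR adjusted p = 0.927). Prkd2, a protein kinase D, followed at 0.21 ± 0.13 and -0.51 (edgeR adjusted p = 0.927), and Amigo2, an adhesion protein, at 0.60 ± 0.21 and -0.49. For the difference from PT, Fip1l1, a factor of mRNA 3' end formation, gave 0.14 ± 0.06 without PT and -0.18 with it (edgeR adjusted p = 0.838). Wdr70 gave 0.18 ± 0.05 and -0.10. Of the genes described above, Nmrk2, Atcayos, Myh8, Irf7 and Psmb8 had the same sign in runners and in sedentary mice without PT, whereas Cebpd gave 0.78 ± 0.32 and -0.30 and Pi16 -0.59 ± 0.36 and 0.39.

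**Figure D4:**
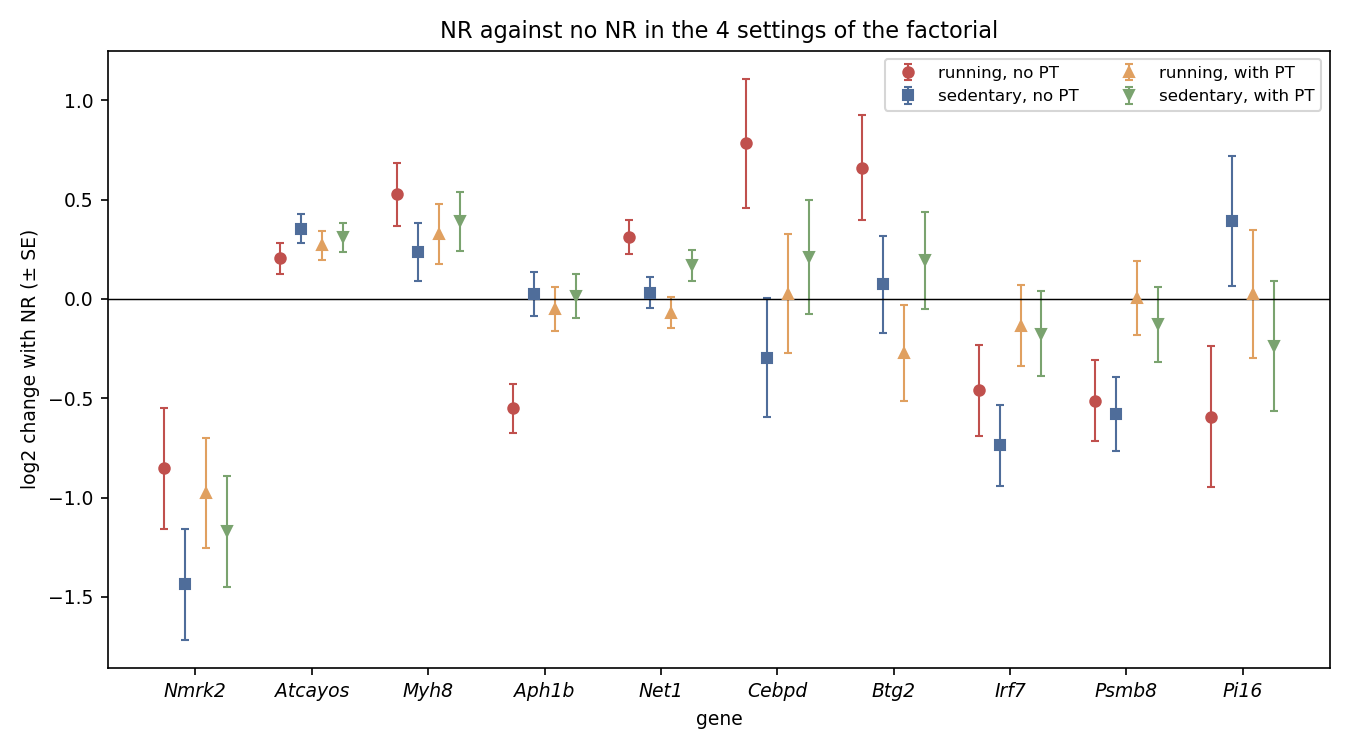
Fitted log2 difference of NR minus no NR (± SE) for 10 genes in 4 settings, running mice and sedentary mice, each without and with PT. Nmrk2 lies below 0 and Atcayos and Myh8 above 0 in all 4 settings, and Aph1b departs from 0 by more than its SE in running mice without PT, at -0.55.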

How the data were processed

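Poly-A RNA was extracted with TRIzol and columns and made into libraries with a stranded Illumina kit, per the labels' protocols. The deposited table holds whole-number counts per gene, without normalization. STAR 2.7.3a was the aligner, featureCounts 2.0.0 the counter and mm10 the build used by the authors, per the submitters' processing notes. Strand setting and annotation release: not given in the sources used here. Symbols were matched for 55394 of 55487 gene identifiers (99.8%) through GENCODE M21. Coordinates are as deposited, and promoter sequences are RefSeq's (GRCm38.p6).

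The filter was filterByExpr with a minimum count of 10 and a minimum total of 15, and libraries were scaled by TMM. The quasi-likelihood test of edgeR 4.0.16 (R 4.3.3) was fitted to all 62 libraries with a term for each group, the day and the time of termination, which left 46 residual degrees of freedom and a biological coefficient of variation of 14%. Tests were two-sided, adjusted by Benjamini-Hochberg over all genes, and called below 0.05. DESeq2 1.42.0 was an alternative, and the code was tested on simulated data. CPM uses TMM-scaled library sizes. Named genes were the 8 smallest p-values in each direction with at least 1 CPM, leaving out predicted genes, up to 4 per list, 3 per difference and a set of NAD, fibre and exercise genes. A few members beyond the rule are named as ends of a list's range or as well-known members. The comparison and the 33 lists were chosen with earlier results of these data known, and so were the 8 ribosomal-RNA-like genes. Of 773 list entries, 8 matched no symbol. Lists are described by counts and medians and carry no test.

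Totals of all 62 libraries were 5.64 to 30.8 M counts (median 16.1 M). The labels' protocols name no molecular identifiers, so reads were not taken as independent molecules. Between replicates the chi-square per gene was at least 5.85, so no 2 libraries agreed within sampling noise. Same-numbered titles did not deviate together (r from -0.083 to 0.278, 1 of 7 above 0.1), and same-day pairs gave r from -0.064 to 0.252 (2 of 6 above 0.1). Day is already a term of the fit.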

Additional observations from a re-analysis of the deposited data

Results flagged for a closer look

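In 37 of 278 sets of 7 libraries (13.3%) 1 library stood far from the others. The limit used is set to about 1 in 20 for independent, normally distributed values. The sets here are mostly CPM of genes named in the text and overlapping lists, so that share is no baseline for them. NR replicate 1 accounted for 11 of them. It held 28.9% ribosomal-like counts, 88120 CPM of Ttn and a difference of 0.88 (log2) between long and short genes. Mean log2 CPM there was the lowest of the 7 for the respiratory chain (6.72) and fast fibre genes (12.16) and the highest for insulin signalling (5.62). Ccdc6 (165 CPM), Zbtb16 (109.9 CPM), Dvl2 (13.45 CPM) and Vsig2 (8.02 CPM) were highest in it and Ndufb6 (38.3 CPM) lowest.

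Unsupplemented replicate 6 was highest for Myh7 (25.4 CPM), Myl3 (34.1 CPM), Myl2 (14.6 CPM), Tnnc1 (5.07 CPM), Myh1 (8007 CPM) and mt-Co1 (52360 CPM). NR replicate 2 was the highest NR library for Myh7 (4.78 CPM), Myl2 (3.89 CPM) and Atf3 (20.5 CPM) and the lowest for Kcnd1 (0.0811 CPM). NR replicate 3 was the highest NR library for Irf7 (5.75 CPM), Csf1r (44.1 CPM), Dpp4 (23.4 CPM), Aldh1a3 (16.5 CPM) and the macrophage list (mean log2 CPM 3.13).

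Unsupplemented replicate 3 was the highest of its group for B2m (224 CPM), Aldh1a3 (17.5 CPM) and Smpd3 (11.8 CPM). Unsupplemented replicate 1 was highest for Atf3 (46.5 CPM) and the endothelial list (mean log2 CPM 5.23). The rest were Mb21d2 in unsupplemented replicate 2 (15.9 CPM), Sln in unsupplemented replicate 7 (1.61 CPM), Fkbp5 in NR replicate 6 (65.0 CPM), Mymk in NR replicate 7 (1.03 CPM), and Gng7 (4.91 CPM) and Amigo2 (5.23 CPM) in NR replicate 4.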

How the results depend on the processing

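The counts of called genes were 0 for NR in runners, for the difference from sedentary mice and for the difference from PT in every setting run except 2. With the 14 libraries alone and day of termination as a block, 3 genes were called for NR in runners, and 3 in the same fit without NR replicate 1, an alternative chosen after seeing the data. The cause was not tested. Leaving out each of the 14 libraries in turn gave 0 to 0 calls for all 3 comparisons, with 388 to 526, 406 to 556 and 361 to 599 genes at an unadjusted p below 0.05. A replicate block on the title number gave 0 calls, as did the fit without day and time terms. Testing with no filter on low counts covered 35005 genes and called 0. The median over all genes stayed between -0.01 and 0.00 in all settings. Of 4927 values of 165 named genes over 30 settings, 193 changed sign. Of 990 list medians, 148 changed sign, and those of the interferon, antigen presentation, macrophage, fibroblast, glucocorticoid and immediate early lists changed sign in 0 settings. The same held for the NAD synthesis, clock, extracellular matrix and heat shock lists, whose medians were small. Most settings reuse the same libraries. The interferon median came to -0.03 in cohort 1 and that of antigen presentation to -0.06 without unsupplemented replicate 3. Depth limits what can be said of genes under 1 CPM.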

Other observations

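Some smaller groups of genes have not yet been described. Of 29 heat shock and endoplasmic reticulum chaperone genes, 23 were below 0 with a median of -0.04, or 20 with a median of -0.02 without NR replicate 1, and 0 passed. Hspa4l, a cochaperone of the Hsp110 family, measured 4.84 to 11.6 CPM (median 9.01) with NR and 10.2 to 13.2 CPM (median 10.9) without, a difference of -0.33 ± 0.12, and was lower in 5 of 6 same-day pairs. Hspa5, the main chaperone of the endoplasmic reticulum, gave -0.09 ± 0.06.

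Of 29 antioxidant and xenobiotic genes, 12 were above 0 and the median was -0.01. Besides Gpx3, the list held Nqo1, a quinone reductase and Nrf2 target, at 25.1 to 30.7 CPM (median 27.9) with NR and 27.8 to 34.7 CPM (median 30.7) without. Its difference was -0.17 ± 0.08, with 6 of 6 pairs lower. Aldh3a1, an aldehyde dehydrogenase, gave 1.01 ± 0.49 at 0.318 to 2.57 CPM against 0.269 to 0.915 CPM, and -1.21 in runners with PT.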
